A study of Homo sapiens with 4 samples.

Results

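Fatty acid synthesis and desaturation was represented by 10 genes, chosen by name with earlier results of these data known. They were ACLY, ACACA, FASN, SCD, ELOVL5, ELOVL6, ELOVL7, FADS1, FADS2 and ACSL3. Of these, 9 were measured among the 18417 genes of the arrays. Each of the 9 had 1 probe set, and no probe set was named for ACSL3 alone, so that gene was not analysed here. RNA came from cells labelled PC3, an established prostate cancer line. In 2 arrays the cells, labelled PC3-PDEF, were engineered to overexpress PDEF, an ETS transcription factor encoded by SPDEF. In the other 2 arrays the cells, labelled PC3-SCR, carried the empty pBABE vector. Both groups were kept in the same serum-containing medium, and the study's methods describe the PDEF line as stably transfected. Whether a line was 1 clone or a pool is not given in the sources used here.

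Cells build fatty acids from citrate. ATP citrate lyase (ACLY) releases acetyl-CoA in the cytosol, acetyl-CoA carboxylase (ACACA) converts it to malonyl-CoA, and fatty acid synthase (FASN) assembles palmitate. Elongases of the ELOVL family lengthen acyl chains, and desaturases introduce double bonds. SCD makes monounsaturated fatty acids, while FADS2, ELOVL5 and FADS1 act in turn on dietary polyunsaturated fatty acids to make products such as arachidonic acid. Many of these genes are known targets of the SREBP transcription factors, and high FASN is well known in prostate cancer.

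The values are log2 array signals, as deposited. The highest signal among 341 olfactory receptor genes, used here as a gauge of background, lay between 5.65 and 6.01 per array. Whether any of these receptor genes is transcribed in these cells was not tested, so the gauge may lie above the true background. A gene not above it in at least 1 array of a group is called near background there. SPDEF had signals of 6.85 and 6.73 in PC3-PDEF, against 5.99 and 6.06 in PC3-SCR (log2 fold change 0.76, standard error 0.088). CTNNA1 and STAT3, known to be homozygously deleted in PC3 cells, had signals of 9.05 to 9.86 in PC3-PDEF and 4.07 to 4.77, near background, in PC3-SCR. Of 8 genes typical of PC3 cells, 7 were lower in PC3-PDEF, and the mean signal of the list was 8.24 and 8.30 in PC3-PDEF against 10.24 and 10.18 in PC3-SCR. Among all 18417 genes, 24.0% were called lower and 26.7% higher, here and below at a limma adjusted p under 0.05. Of 7 measured genes known from kidney development or embryonic kidney lines, 4 were higher and 1 lower in PC3-PDEF. The 4 were EYA1, LIN28B, NEFM and NEFL, and the 1 lower was PAX8. Within this list NEFM and LIN28B rose most, from near background in PC3-SCR, and PAX2 and LHX1 were not called. The mean of that list was 7.28 and 7.36 in PC3-PDEF and 5.34 and 5.26 in PC3-SCR, with PAX2 and LHX1 near background in both groups and PAX8 near background in PC3-PDEF. These differences separate the same arrays as every result below, so PDEF and a difference in the cells themselves cannot be told apart. Of 8 adipocyte genes, 7 were near background in both groups, as were 7 of 8 hepatocyte genes. Of 10 listed genes of prostate luminal cells 6 were measured, and 2 (SPDEF and ACP3) were higher, 1 (STEAP2) lower and 3 not called. KLK2, KLK3 and ACP3 were near background in both groups. HOXB13 and STEAP2 were above it, HOXB13 with 6.78 and 6.74 in PC3-PDEF against 6.63 and 6.65 in PC3-SCR (adjusted p = 0.259 from limma).

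Promoter windows of 8 of the 9 measured genes were found in the RefSeq table (GRCh38.p14), each with 250 bases before and 50 bases after a start site, and 12 windows in all since some genes have several starts, whose windows can overlap. Those of SCD and ELOVL7, whose signals were higher in PC3-PDEF, and of ELOVL5, FADS1 and FADS2, whose signals were lower, are shown so that the promoters of the opposing groups can be compared. Each reads along the gene's own strand, and for FADS2 it is the second of 2 listed starts. The window of the first FADS2 start, not shown, lacks all of the letter groups that capitals mark here.
SCD (chr10:100346983-100347282, plus strand): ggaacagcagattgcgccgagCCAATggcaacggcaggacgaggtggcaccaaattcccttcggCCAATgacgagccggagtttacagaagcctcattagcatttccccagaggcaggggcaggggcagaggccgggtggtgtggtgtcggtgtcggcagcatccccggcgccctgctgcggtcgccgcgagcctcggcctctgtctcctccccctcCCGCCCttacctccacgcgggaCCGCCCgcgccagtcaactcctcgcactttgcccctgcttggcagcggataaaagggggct
ELOVL7 (chr5:60844220-60844519, minus strand): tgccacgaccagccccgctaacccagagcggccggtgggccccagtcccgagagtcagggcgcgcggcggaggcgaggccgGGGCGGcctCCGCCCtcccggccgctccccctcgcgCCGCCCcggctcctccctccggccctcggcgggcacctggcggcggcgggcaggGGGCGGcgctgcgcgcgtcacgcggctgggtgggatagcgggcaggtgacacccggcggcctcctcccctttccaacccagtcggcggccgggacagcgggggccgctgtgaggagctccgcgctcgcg
ELOVL5 (chr6:53348901-53349200, minus strand): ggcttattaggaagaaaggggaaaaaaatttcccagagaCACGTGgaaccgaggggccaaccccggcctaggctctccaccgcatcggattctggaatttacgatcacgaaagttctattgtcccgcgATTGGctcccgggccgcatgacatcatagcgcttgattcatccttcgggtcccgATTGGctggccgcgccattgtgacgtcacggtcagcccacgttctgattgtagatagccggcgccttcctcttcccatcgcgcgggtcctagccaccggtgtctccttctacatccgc
FADS1 (chr11:61816954-61817253, minus strand): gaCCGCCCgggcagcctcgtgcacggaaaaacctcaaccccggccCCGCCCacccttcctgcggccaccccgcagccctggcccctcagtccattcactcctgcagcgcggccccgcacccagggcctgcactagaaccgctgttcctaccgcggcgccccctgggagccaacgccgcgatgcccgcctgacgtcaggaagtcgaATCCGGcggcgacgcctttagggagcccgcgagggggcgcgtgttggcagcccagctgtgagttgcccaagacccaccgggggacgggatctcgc
FADS2 (chr11:61816154-61816453, plus strand): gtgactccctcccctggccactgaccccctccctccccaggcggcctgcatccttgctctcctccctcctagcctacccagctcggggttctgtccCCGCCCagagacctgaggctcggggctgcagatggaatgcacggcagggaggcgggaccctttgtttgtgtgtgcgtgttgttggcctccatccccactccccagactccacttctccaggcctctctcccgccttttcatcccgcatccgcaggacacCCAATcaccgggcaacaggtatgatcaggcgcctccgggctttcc
Capitals mark the letters CCAAT (bound by NF-Y, a partner of SREBP), GGGCGG (the GC box of Sp1 factors), CACGTG (an E-box), CCGGAA and CCGGAT (cores of ETS sites), read on both strands. CCAAT stood in 7 of the 12 windows, those of ACLY, ACACA, SCD, ELOVL5 and FADS2, and in 34.6% of all 35116 windows in the table. GGGCGG stood in 9 windows, of every gene with a window but ELOVL5, against 45.0% of all windows. CACGTG was found in ELOVL5 alone, against 7.26% of all windows. CCGGAT was found in 1 window each of ACLY and FADS1 (7.12% of all windows) and CCGGAA in none (17.2% of all windows). CCAAT and GGGCGG thus occurred in windows of genes of both directions.

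The 9 measured genes can be sorted by the fatty acids that their enzymes are mainly known for, a grouping made with their values known. It is not exclusive, since an enzyme may act on more than 1 kind of fatty acid. The 6 placed with saturated and monounsaturated fatty acids were higher in PC3-PDEF, and the 3 of the set placed with polyunsaturated fatty acids were lower. Related enzymes outside the set did not all follow this grouping. ELOVL2, of polyunsaturated chains, rose (log2 fold change 1.25) and ELOVL1, of saturated chains, fell (-0.96), while SCD5 rose as SCD did (0.84). All 9 measured genes passed the test (limma, adjusted p under 0.05). Among all 18417 genes, 26.7% were called higher, 24.0% were called lower and 50.7% were called in either direction, so a call in itself was common in these arrays. At least 2-fold changes were called for 4 of the 9 in the higher direction, where 8.67% of all genes were called, and for FADS2 in the lower direction, where 6.07% were (14.7% for both directions together). FASN, 1 of the 4, was under 2-fold after median centring (log2 fold change 0.96), after quantile normalization (0.95), without PC3-PDEF replicate 1 (0.94) and without PC3-SCR replicate 2 (0.92). For each of the 9, both PC3-PDEF arrays lay on 1 side of both PC3-SCR arrays, as for 74.7% of all genes. The median log2 fold change of the 9 was 0.91, and that of all genes was -0.05. The median size of the change, whatever its sign, was 1.03 for the 9 and 0.30 for all genes. All genes include dim ones, whereas all 9 were among the genes above the median level. In a fit of only those brighter genes, 3928 were called higher and 3009 lower, against 4918 and 4419 when all genes were fitted. The shares and medians of all genes are thus no measure of genes with signals like those of the 9. Arrays of 1 group differed by 0.01 to 0.27 for these genes in PC3-PDEF and by 0.00 to 0.22 in PC3-SCR. In bulk RNA, fewer cells of a type and less RNA per cell cannot be told apart.

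**Figure D1:**
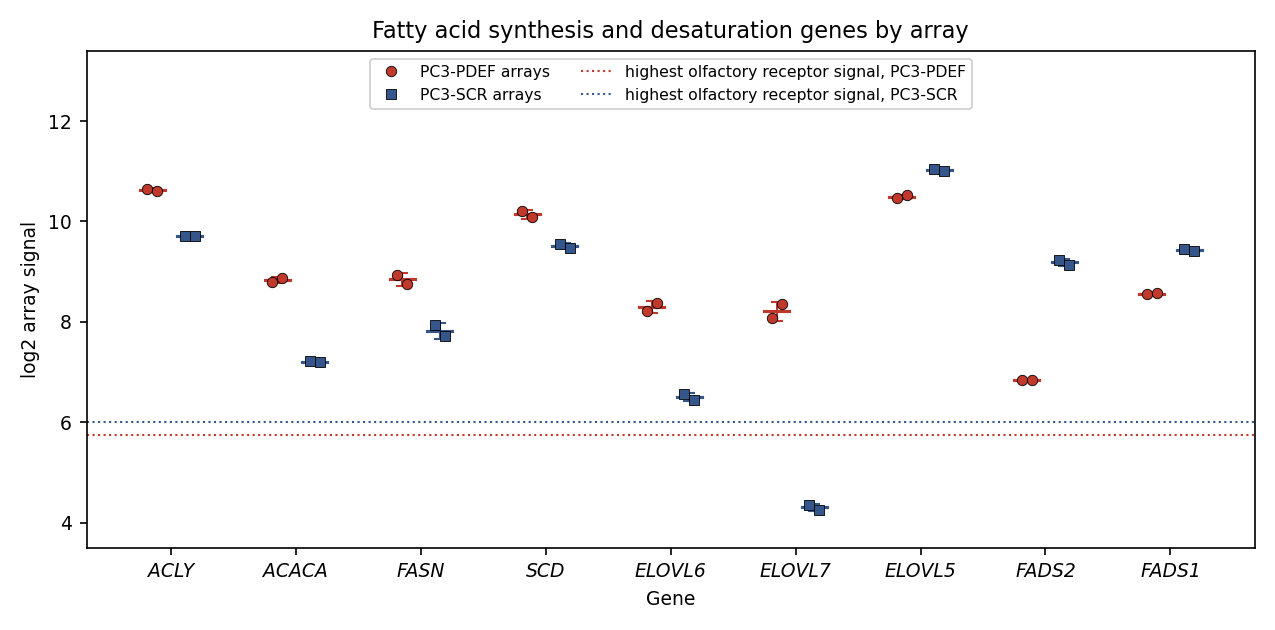
Log2 array signal (vertical axis) of the 9 measured genes (horizontal axis) in PC3-PDEF (red circles) and PC3-SCR arrays (blue squares), where a line marks each group's mean and bars its SD (n = 2), and the highest olfactory receptor signal of each group's arrays (dotted). From ACLY to ELOVL7 the PC3-PDEF arrays lie above, ELOVL7 at 8.08 and 8.35 against 4.36 and 4.26, and from ELOVL5 to FADS1 they lie below, FADS2 at 6.85 and 6.84 against 9.24 and 9.14.

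The 3 enzymes that lead to palmitate were all higher in PC3-PDEF. ACLY had log2 signals of 10.65 and 10.61 in PC3-PDEF and of 9.72 and 9.72 in PC3-SCR, which is 1.88-fold higher (log2 fold change 0.91, standard error 0.080, adjusted p = 0.000175 from limma). ACACA, the cytosolic carboxylase that commits acetyl-CoA to fatty acids, had 8.80 and 8.88 in PC3-PDEF and 7.22 and 7.20 in PC3-SCR. Its rise was 3.10-fold (log2 fold change 1.63, standard error 0.083, adjusted p = 2.08e-05 from limma). Both genes showed a gap between the groups many times the gap between arrays of a group. FASN had 8.94 and 8.76 in PC3-PDEF and 7.93 and 7.71 in PC3-SCR, a 2.04-fold rise (log2 fold change 1.03, standard error 0.11, adjusted p = 0.000445 from limma). Its arrays spread more within a group, but the lower PC3-PDEF array still stood above both PC3-SCR arrays.

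The enzymes that act on palmitate and its products were higher as well. SCD, the delta-9 desaturase that makes oleate and palmitoleate, had signals of 10.20 and 10.08 in PC3-PDEF against 9.56 and 9.48 in PC3-SCR (log2 fold change 0.62, standard error 0.089, adjusted p = 0.00148 from limma). This 1.54-fold rise was the least of the 6. ELOVL6, which extends palmitate to stearate, had 8.21 and 8.38 in PC3-PDEF against 6.56 and 6.44 in PC3-SCR, a 3.47-fold rise (log2 fold change 1.80, standard error 0.099, adjusted p = 2.85e-05 from limma). ELOVL7, an elongase of saturated very long chains known as androgen-regulated in prostate cancer, had 8.08 and 8.35 in PC3-PDEF. In PC3-SCR it had 4.36 and 4.26, near background in both arrays, so its change is a bound. Against the highest olfactory receptor signal of the PC3-SCR arrays it was at least 4.72-fold higher (fitted log2 fold change 3.90, standard error 0.11, adjusted p = 3.71e-06 from limma).

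FADS2, ELOVL5 and FADS1, which act on polyunsaturated fatty acids, were lower in PC3-PDEF. FADS2, the delta-6 desaturase at the first step, had 6.85 and 6.84 in PC3-PDEF against 9.24 and 9.14 in PC3-SCR. Its log2 fold change was -2.35 (SE 0.084, adjusted p = 6.38e-06 from limma), which is 5.08-fold lower, and its signal stayed above background. FADS2 had the 238th lowest difference of the 18417 genes. ELOVL5, which lengthens the product of FADS2, had the signals 10.46 and 10.52 in PC3-PDEF against 11.04 and 11.01 in PC3-SCR. It was 1.45-fold lower (log2 fold change -0.54, SE 0.082, adjusted p = 0.00192 from limma). FADS1, the delta-5 desaturase that follows, had 8.56 and 8.57 in PC3-PDEF against 9.45 and 9.42 in PC3-SCR. It was 1.83-fold lower (log2 fold change -0.87, SE 0.080, adjusted p = 0.000208 from limma). The order of the 3 falls was FADS2, FADS1 and ELOVL5, and differences between their fold changes were not tested.

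Isoenzymes of some steps changed in the same direction and those of others in opposite directions. A list of 25 other enzymes of fatty acid synthesis, elongation and desaturation had 23 measured genes, with 9 higher, 4 lower and 10 not called (median log2 fold change 0.12), where 26.7% of all genes were higher and 24.0% lower. ACACB, the mitochondrial carboxylase whose malonyl-CoA restrains fatty acid oxidation, had 5.53 and 5.53 in PC3-PDEF, near background, against 6.05 and 6.03 in PC3-SCR. The PC3-SCR signals were just above the highest olfactory receptor signals of these arrays, 5.94 and 6.01. ACACB was at least 1.27-fold lower (adjusted p = 0.00212 from limma), whereas ACACA was higher. Among the elongases, ELOVL2, which acts on polyunsaturated chains, had 7.69 and 7.67 in PC3-PDEF against 6.29 and 6.56 in PC3-SCR (log2 fold change 1.25, standard error 0.11). It thus ran opposite to ELOVL5. ELOVL4, which makes very long chains, had a log2 fold change of 1.48 (standard error 0.089) from a level near background in 1 PC3-SCR array. ELOVL1, an elongase of saturated chains, fell by 0.96 (standard error 0.093) with 8.80 and 8.66 in PC3-PDEF against 9.74 and 9.64 in PC3-SCR, opposite to ELOVL6 and ELOVL7. ELOVL3 did not pass the test and was near background in both groups.

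HACD3, one of the dehydratases of the elongation cycle, had 11.10 and 11.14 in PC3-PDEF against 8.94 and 8.98 in PC3-SCR. It rose by 2.16 (SE 0.081, adjusted p = 7.33e-06 from limma), the highest fold change of the list. Its paralog HACD2, named after its values were seen, rose by 0.53 (adjusted p = 0.00275, and 0.0584 without PC3-PDEF replicate 2, from limma). Among the desaturases, SCD5, the second delta-9 desaturase, had 6.74 and 6.71 in PC3-PDEF against 5.88 and 5.89, near background, in PC3-SCR. It was at least 1.68-fold higher (adjusted p = 0.000241 from limma), in the direction of SCD. FADS3, the neighbour and paralog of FADS1 and FADS2, had 7.05 and 6.90 in PC3-PDEF against 7.82 and 7.76 in PC3-SCR. It fell by 0.82 (standard error 0.092, adjusted p = 0.000491 from limma), in the direction of its paralogs. DEGS1, the desaturase of ceramide synthesis, also named after its values were seen, rose by 1.00 (standard error 0.10). FADS6 did not pass the test and was near background in both groups.

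Of 24 listed regulators of lipogenesis 23 were measured, and 6 were higher, 7 lower and 10 not called (median log2 fold change -0.05). These counts were near the shares of all genes, 26.7% higher and 24.0% lower. SREBF1, which encodes the SREBP most tied to fatty acid synthesis, was near background in both groups, with 5.75 and 5.63 in PC3-PDEF against 5.86 and 5.94 in PC3-SCR (adjusted p = 0.0953 from limma). That p was 0.0371 after median centring and 0.0463 after quantile normalization. SREBF2, the SREBP of cholesterol synthesis, had 8.07 and 8.02 in PC3-PDEF against 7.55 and 7.67 in PC3-SCR, a rise of 0.44 (standard error 0.087, adjusted p = 0.00655 from limma). Its adjusted p was 0.0798 without PC3-PDEF replicate 1, 0.0693 without PC3-PDEF replicate 2 and 0.0537 without PC3-SCR replicate 1. INSIG1, an SREBP target whose product retains SREBP in the endoplasmic reticulum, had 9.05 and 9.19 in PC3-PDEF against 9.94 and 9.79 in PC3-SCR. It fell by 0.74 (standard error 0.098, adjusted p = 0.00101 from limma). SCAP, the escort of SREBP, had 8.11 and 8.05 in PC3-PDEF against 8.18 and 8.14 in PC3-SCR (adjusted p = 0.453 from limma). MLXIPL, which encodes the glucose-responsive factor ChREBP, was called higher but was near background in both groups. Its adjusted p was 0.00181, and 0.0672 and 0.0661 without PC3-SCR replicate 1 or 2 (limma). PPARG, a nuclear receptor of lipid storage, fell by 1.36 (standard error 0.11), with 6.50 and 6.77 in PC3-PDEF against 8.03 and 7.97 in PC3-SCR.

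Subunits of AMPK, the kinase that phosphorylates and inhibits acetyl-CoA carboxylase, changed in both directions. PRKAA2, a catalytic subunit, had 9.04 and 8.97 in PC3-PDEF against 6.84 and 6.83 in PC3-SCR (log2 fold change 2.17, standard error 0.082, adjusted p = 7.46e-06 from limma). PRKAA1, the other catalytic subunit, had 8.68 and 8.88 in PC3-PDEF against 9.43 and 9.49 in PC3-SCR. It fell by 0.68 (adjusted p = 0.00156, and 0.0536 without PC3-SCR replicate 2, from limma). Of the nucleotide-sensing subunits, PRKAG1 rose by 0.79 (standard error 0.084) and PRKAG2 fell by 1.01 (standard error 0.084). PRKAB1, a scaffold subunit, rose by 0.60 (standard error 0.084). PRKAA1 and PRKAB1 were named after their values were seen. When single arrays were left out, 3 to 4 regulators were higher and 4 to 5 lower, with 3 higher without PC3-SCR replicate 1 and 4 lower without PC3-SCR replicate 2 or either PC3-PDEF array.

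Of 8 measured enzymes (of 9 listed) that supply cytosolic acetyl-CoA and NADPH, 0 were called higher, 4 were lower and 4 were not called in limma (median log2 fold change -0.31), where 26.7% of all genes were higher and 24.0% lower. The higher count was 1 among genes above the median level and with the replicate number as a block, and 2 with an intensity trend. With an unadjusted limma p under 0.05, SLC25A1 was higher too, and its adjusted p of 0.0506 is at the threshold. SLC25A1, the mitochondrial citrate carrier upstream of ACLY, had 8.54 and 8.29 in PC3-PDEF against 8.16 and 7.99 in PC3-SCR, and its adjusted p was 0.0121 with an intensity trend and 0.0182 among genes above the median level (limma). ACSS2, which makes acetyl-CoA from acetate and so bypasses ACLY, had 6.98 and 7.10 in PC3-PDEF against 8.42 and 8.35 in PC3-SCR. It was 2.54-fold lower (log2 fold change -1.34, SE 0.088, adjusted p = 5.36e-05 from limma). PGD and TALDO1 of the pentose phosphate pathway fell by 0.87 (standard error 0.081) and by 0.66 (standard error 0.089). IDH1, a cytosolic source of NADPH, fell by 0.56 (standard error 0.082). SLC25A1 and IDH1 were named after their values were seen.

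Of 20 listed genes of fatty acid uptake and activation 17 were measured, and 5 were higher, 7 lower and 5 not called (median log2 fold change -0.20). Among all genes 26.7% were higher and 24.0% lower. Of these lipid genes, 7 of the 17 were near background in both groups. ACSL1, an acyl-CoA synthetase of the same family as ACSL3, had 7.83 and 8.03 in PC3-PDEF against 6.55 and 6.57 in PC3-SCR (log2 fold change 1.37, standard error 0.098, adjusted p = 7.35e-05 from limma). ACSL4, which prefers arachidonic acid, had 8.82 and 8.84 in PC3-PDEF against 9.42 and 9.40 in PC3-SCR. It fell by 0.58 (standard error 0.080, adjusted p = 0.00121 from limma), the direction of FADS1 and FADS2. Of the transport proteins with synthetase activity, SLC27A2 had 6.49 and 6.73 in PC3-PDEF against 3.98 and 3.86, near background, in PC3-SCR. It was at least 1.55-fold higher (adjusted p = 9.56e-06 from limma). SLC27A4 rose by 1.32 (standard error 0.12), and SLC27A1 was at least 1.66-fold lower, near background in PC3-PDEF. The mitochondrial synthetase ACSF2 fell by 0.64, and FABP4, near background in both groups, was called lower. When single arrays were left out, 3 to 4 of these genes were higher and 4 to 5 lower, with 3 higher without PC3-PDEF replicate 1 or PC3-SCR replicate 2 and 4 lower without PC3-PDEF replicate 2 or PC3-SCR replicate 2.

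Of 14 measured genes of glycerolipid synthesis (of 16 listed), which store fatty acids or build them into membranes, 5 were higher and 5 lower (median log2 fold change -0.20), where 26.7% of all genes were higher and 24.0% lower. GPAM, the mitochondrial acyltransferase of the first step, had 7.81 and 7.83 in PC3-PDEF against 6.65 and 6.72 in PC3-SCR (log2 fold change 1.14, standard error 0.082, adjusted p = 7.73e-05 from limma). GPAT3, an enzyme of the same step in the endoplasmic reticulum, had 8.29 and 8.28 in PC3-PDEF against 9.29 and 9.27 in PC3-SCR, and fell by 1.00 (standard error 0.080). GPAT4, a further enzyme of this step there, rose by 0.535 (adjusted p = 0.00182 from limma) and was named after its values were seen. AGPAT5 and AGPAT4, acyltransferases of the next step, rose by 0.76 and by 0.70. DGAT1 and DGAT2, which make triglyceride, fell by 0.88 and by 0.74. The adjusted p of AGPAT4 was 0.00183, but 0.0709 and 0.0735 without PC3-PDEF replicate 1 or 2. That of DGAT2 was 0.0068, but 0.154 and 0.115 without these arrays and 0.0587 without PC3-SCR replicate 1 (limma). Without PC3-PDEF replicate 1, 3 genes were higher.

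Of 22 measured genes of fatty acid oxidation (of 24 listed), the opposing pathway, 9 were higher, 7 lower and 6 not called (median log2 fold change 0.07), where 26.7% of all genes were higher and 24.0% lower. CPT1A, which admits fatty acids to mitochondria and is inhibited by malonyl-CoA, had 8.26 and 8.37 in PC3-PDEF against 6.25 and 6.03 in PC3-SCR (log2 fold change 2.17, standard error 0.11, adjusted p = 1.76e-05 from limma). It rose together with ACACA, which makes malonyl-CoA. CPT1C, its neuronal paralog, had 5.44 and 5.41, near background, in PC3-PDEF against 7.15 and 7.07 in PC3-SCR. It was at least 2.66-fold lower (adjusted p = 1.86e-05 from limma). ETFA, a subunit gene of an electron carrier of oxidation, rose by 1.92 (standard error 0.091), while ETFB, the gene of the other subunit, fell by 0.41 (adjusted p = 0.00981 from limma). The isomerase gene ECI1 rose by 0.94, while the isomerase gene ECI2 fell by 0.58 (adjusted p = 0.00121 from limma). ETFB and ECI2 were named after their values were seen. DECR1, the reductase needed to oxidise polyunsaturated fatty acids, had 7.10 and 6.98 in PC3-PDEF against 8.99 and 9.0 in PC3-SCR, and fell by 1.96 (standard error 0.086, adjusted p = 1.29e-05 from limma). PPARA, a receptor that activates oxidation genes, fell by 0.98.

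**Figure D2:**
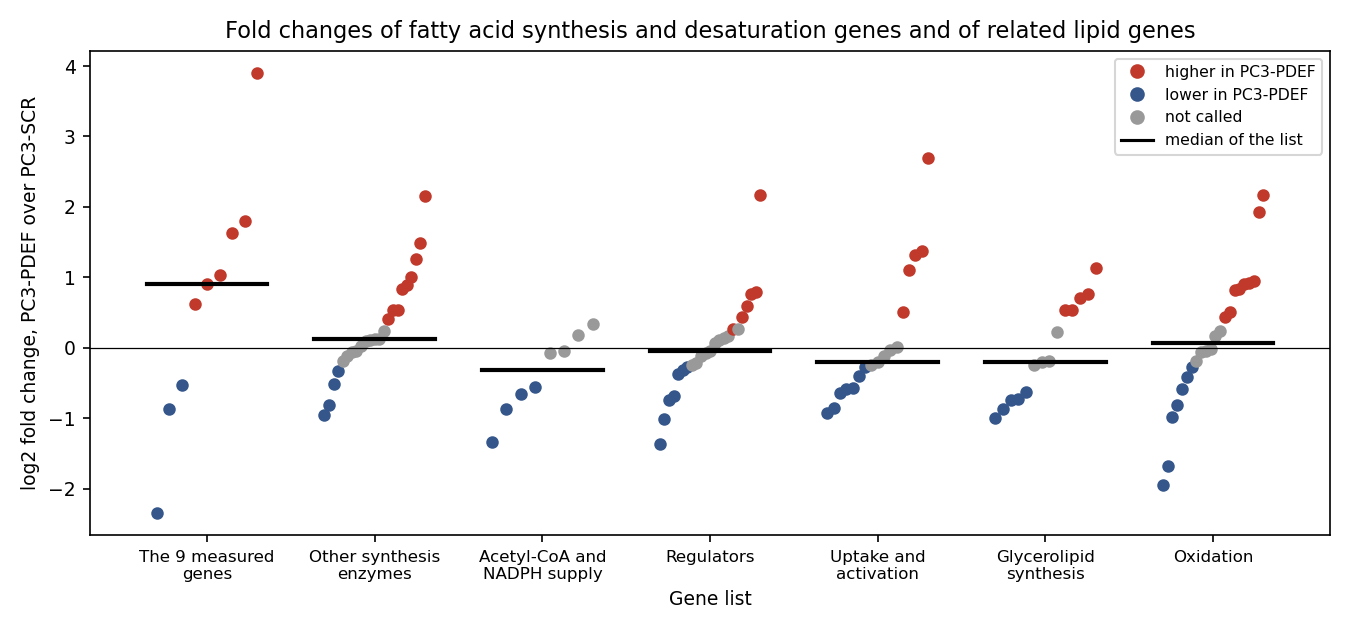
Log2 fold change of PC3-PDEF over PC3-SCR (vertical axis) of each measured gene (points, red called higher, blue called lower, grey not called) in the 9 genes and 6 related lists (horizontal axis), with the median of each list (line). The median of the 9 genes is 0.91 and those of the other lists lie between -0.31 and 0.12.

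ACLY lies on chromosome 17 in the order of genes that also holds STAT3, with 14 measured genes between them. Of the 20 measured genes on each side of ACLY, 19 of 40 were higher and 2 lower in PC3-PDEF, that is 47.5% and 5.0%, against 26.7% and 24.0% of all genes. Next to ACLY, KLHL11, a ubiquitin ligase adaptor gene, had 8.62 and 8.74 in PC3-PDEF against 7.51 and 7.39 in PC3-SCR (log2 fold change 1.23, standard error 0.093, adjusted p = 9.19e-05 from limma). On the other side ODAD4, a gene of motile cilia, was called higher but was near background in both groups, with an adjusted p of 0.00633 and of 0.0711, 0.0807 and 0.11 without PC3-PDEF replicate 2, PC3-SCR replicate 1 or PC3-SCR replicate 2 (limma). NT5C3B, DNAJC7 and NKIRAS2, within 4 places of ACLY and named after their values were seen, rose by 1.36, by 1.35 and by 1.06.

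Several neighbours closer to STAT3 were near background in PC3-SCR alone. ATP6V0A1, a proton pump subunit gene, had 8.57 and 8.56 in PC3-PDEF against 3.76 and 3.61 in PC3-SCR, at least 6.02-fold higher. RAB5C, an endosomal GTPase gene, had 9.75 and 9.78 in PC3-PDEF against 5.66 and 5.64 in PC3-SCR, at least 13.8-fold higher. STAT3, with 9.06 and 9.05 against 4.51 and 4.70, was at least 8.46-fold higher. Unlike these genes, ACLY was far above background in both groups, with PC3-SCR signals of 9.72. The keratin genes KRT19 and KRT15, which also lie near ACLY, were called lower. KRT19 had 5.85 and 5.57 in PC3-PDEF, near background in 1 array, against 7.84 and 7.67 in PC3-SCR. KRT15 was near background in both groups, with an adjusted p of 0.000814 and of 0.0606 without PC3-SCR replicate 2 (limma). The part of this stretch of the chromosome in the rise of ACLY was not tested.

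**Figure D3:**
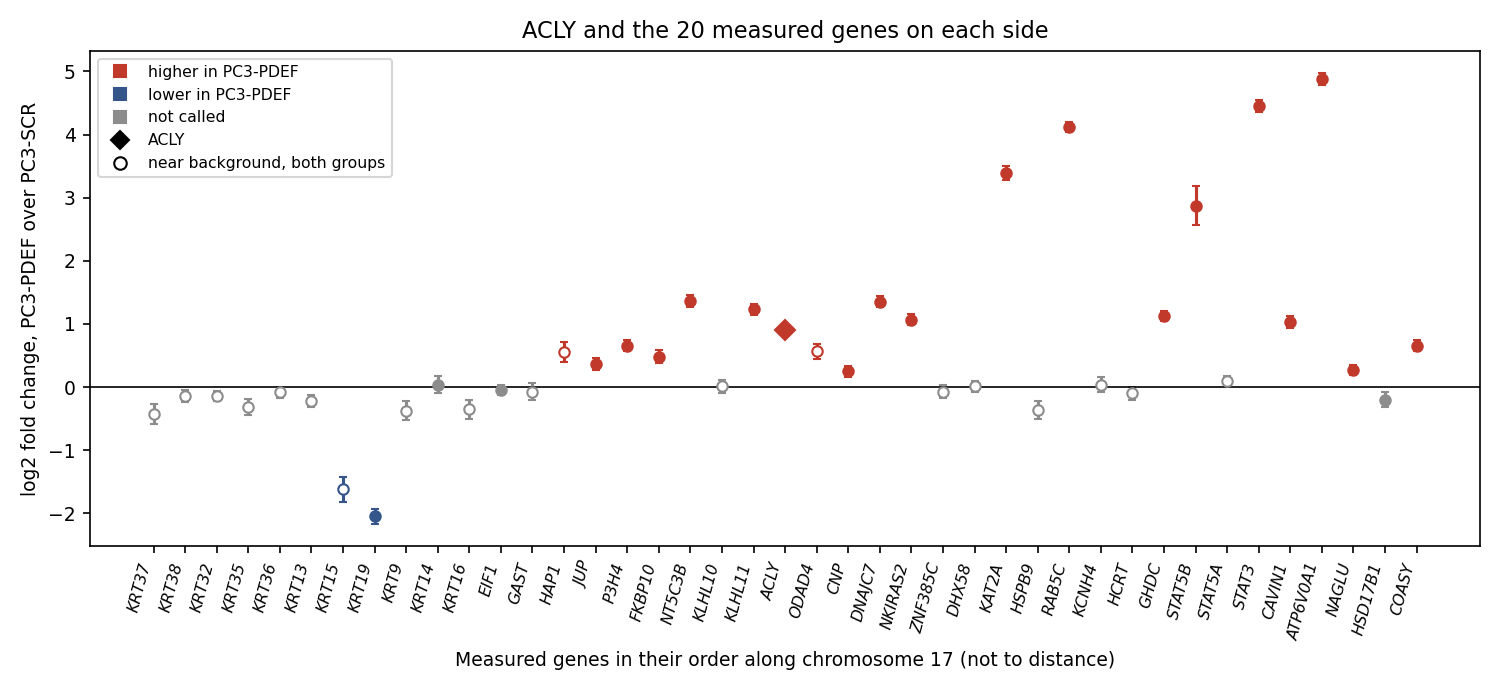
Log2 fold change of PC3-PDEF over PC3-SCR (vertical axis) with its standard error (bars, 2 arrays per group) for ACLY (diamond) and the 20 measured genes on each side in their order along chromosome 17 (horizontal axis), with open symbols near background in both groups. ACLY at 0.91 lies among rises of 0.25 to 1.36 in the genes within 5 places, apart from KLHL10 and ZNF385C near 0, and RAB5C, STAT3 and ATP6V0A1 lie above 4.

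FADS1, FADS2 and FADS3 lie side by side on chromosome 11, and all 3 were lower. Of the 10 measured genes on each side of FADS1 and FADS2, FADS3 included, 3 were higher and 5 lower, that is 15% and 25%, against 26.7% and 24.0% of all genes. FEN1, a DNA replication nuclease gene next to FADS1, ran the other way, with 9.07 and 9.13 in PC3-PDEF against 8.24 and 8.19 in PC3-SCR (log2 fold change 0.88, standard error 0.082, adjusted p = 0.000221 from limma). BEST1, beyond FADS3, was called lower but was near background in both groups, with an adjusted p of 0.00366, and of 0.0512 and 0.0617 without PC3-PDEF replicate 1 or 2 (limma). DAGLA and SYT7, near background in both groups, were called higher, and TMEM216 fell by 0.40. The adjusted p of DAGLA was 0.01, but 0.0618 to 0.0813 without PC3-PDEF replicate 1 or 2 or PC3-SCR replicate 2. Those of SYT7 (0.0394) and TMEM216 (0.0173) were 0.0564 to 0.169 and 0.0747 to 0.141 when any 1 array was left out (limma). Of all 20 neighbours, 12 did not pass the test.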

How the data were processed

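Total RNA of PC3-PDEF and PC3-SCR cells (2 Affymetrix HuGene-1.0-st-v1 arrays each) was compared. The deposited values are log2 signals of 33297 probe sets, which the authors obtained from Transcriptome Analysis Console according to the submitters' processing notes. For its version, background correction and normalization, nothing is given in the sources used here. That the scale is log2 follows from the span of the signals. Array medians of 5.41 to 5.46 differed little, as scaling between arrays by the authors would give, and such scaling would remove a shift of all genes.

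The platform annotation named the probe sets, with symbols updated from GRCh38.p14 (99.9% of single-gene entries matched). The 19460 with 1 symbol were kept, while 1754 with several and 12083 unnamed ones were not used here. The probe set with the highest mean stood for each of 18417 genes, without a filter on dim genes. An "at least" fold sets the brighter group's mean against the mean, over the arrays of a group in which neither array was above background, of the highest olfactory receptor signal.

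Genes were fitted with limma 3.58.1 in R 4.3.3 (2 residual and 4.23 prior degrees of freedom, two-sided, Benjamini-Hochberg over all genes, called at an adjusted p under 0.05), after a test on simulated data. Alternatives were median centring, quantile normalization, genes above the median level, an intensity trend, the mean of probe sets, the replicate number as a block and each array left out. Named were the 9 genes, fixed regulators and isoenzymes, the up to 3 largest calls in each direction per list or stretch of neighbours, and the direct neighbours. The genes and lists were chosen with earlier results of these data known.

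Whether the arrays of a group represent separate cultures is not stated, and p-values then measure only the spread between arrays, which may be technical. With 2 arrays in each group, the smallest two-sided p of an exact permutation test is 0.333. The number of arrays limits the precision. The study's other experiments were not analysed here.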

Additional observations from a re-analysis of the deposited data

How the results depend on the processing

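All 9 measured genes kept their direction and passed the threshold under each of the 10 alternatives, with a largest adjusted p of 0.0403 (FASN and SCD, limma). Their log2 fold changes moved by little, from 3.77 to 4.04 for ELOVL7 and from -2.42 to -2.30 for FADS2. Of 747 pairs of a named gene and an alternative, 706 stayed on their side of the threshold with the same direction, 36 lost the call, 5 gained one and 0 turned. Genes mentioned only in passing, such as ETFB, ECI2 and GPAT4, were not in these pairs.

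Replicate numbers did not pair the arrays (the deviations of replicate 1 from the group means had r = 0.022 across genes between the groups). With the replicate number as a block, 6 of the 9 genes were higher and 3 lower, and 4355 of all genes were higher and 3619 lower. Of the named genes DGAT2, SYT7 and TMEM216 then had adjusted p of 0.0566, 0.0646 and 0.075 (limma), and 1 acetyl-CoA and NADPH supply gene, SLC25A1, was higher. That count was 1 among genes above the median level and 2 with an intensity trend. Among genes above the median level 2 uptake and activation genes were higher. After quantile normalization 8 glycerolipid genes were lower.

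With 1 array left out, where a lone array is assumed to vary like the other group, 3010 to 3635 of all genes were higher and 2326 to 2856 lower. The largest loss in the higher direction came without PC3-PDEF replicate 2. Counts were 3 to 4 higher and 4 to 5 lower both for regulators and for uptake and activation, and 3 to 5 higher for glycerolipid genes. The size of the change of ELOVL7 is limited by its signals near background in PC3-SCR. Some genes near background in both groups, such as MLXIPL and ODAD4, lost their call, as did some above it, such as SREBF2. The cause of the lost calls was not tested.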

Other observations

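The neighbours of the other measured genes were counted in the same way, with 10 measured genes on each side, a choice made after the values of ACLY were seen. Around ACACA, on chromosome 17 but apart from ACLY, 11 of 20 neighbours were higher in PC3-PDEF and 0 lower, that is 55.0% and 0.0%, against 26.7% and 24.0% of all genes. Around SCD on chromosome 10 the counts were also 11 higher and 0 lower, and around ELOVL6 on chromosome 4 they were 10 higher and 1 lower. Around ACLY 12 of 20 were higher and 0 lower. Around ELOVL7 on chromosome 5, 8 were higher and 3 lower. FASN, itself higher, had 2 neighbours higher and 6 lower. Around ELOVL5 on chromosome 6, 5 were higher and 3 lower while ELOVL5 was lower. The part of these stretches in the changes of the genes was not tested.

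LPL, the lipase that releases fatty acids from circulating triglyceride, was the single adipocyte gene called higher. It had 5.79 and 5.90 in PC3-PDEF, just above background, against 4.55 and 4.55, near background, in PC3-SCR (adjusted p = 5.36e-05 from limma). Its PC3-PDEF mean was below the highest olfactory receptor signals of the PC3-SCR arrays, so no fold is given. LPL was named after its values were seen.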
